A study of Mus musculus with 9 samples.

Results

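The genes described here are the potassium channel genes of the mouse, taken as the transcript clusters (sets of probes that the array reads as 1 transcript) whose only gene symbol in the platform annotation starts with Kcn. The antisense RNA Kcnq1ot1 was left out. This gave 90 genes with 1 cluster each, among 65534 clusters on the array and 30414 with a single gene symbol. The 90 genes include 15 inward rectifier genes (Kcnj), 14 tandem-pore genes (Kcnk), 8 Kcna and 8 Kcnh genes, and 5 Kcne and 4 Kcnip genes for auxiliary subunits. The tissue was the left ventricle of 3 male C57BL/6 mice, 8 weeks old, whose left anterior descending coronary artery was tied for 45 min and reopened for 24 h. The ventricle was divided into the ischemia zone (IZ), its border (BZ) and remote tissue without ischemia (NIZ), with 3 samples of each zone and 1 array for each sample. All 3 zones came from operated hearts, so NIZ is remote tissue of an injured heart and not a sham control. The labels number the samples of a zone from 1 to 3 without tying a number to a mouse, and the p-values measure the spread between these samples.

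Potassium channels carry the outward currents that end the cardiac action potential and hold the resting potential. The pore is built from voltage-gated, inward rectifier or tandem-pore subunits, and auxiliary subunits set how many channels reach the membrane and how fast they open and close. In the mouse ventricle the fast transient outward current dominates early repolarization, and the inward rectifier current IK1 sets the resting potential. The ATP-sensitive channel opens when ATP falls, and the acetylcholine-gated channel IKACh is best known from atrium and pacemaker tissue. Loss of transient outward and inward rectifier current is a known feature of ventricle remodelled after infarction.

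Promoters are shown for 5 genes of ventricular currents whose values spanned more than 1 log2 over the 9 arrays, the transient outward subunits Kcnd2 and Kcnip2, the inward rectifier Kcnj2 and the IKACh subunits Kcnj3 and Kcnj5. In each of them replicate 3 lay above replicate 1 in every zone, as described below. They were chosen by hand after their values were seen. Kcnh2, Kcnq1 and Kcne1 had the same range and pattern (1.36, 1.07 and 1.07 log2) and are not shown. Kcne4, which spanned 2.32 log2 and ran the opposite way, is not among them either. Each run gives the 250 bases before the transcript start in RefSeq (GRCm38.p6), read 5′ to 3′ on the gene's strand, and capitals mark a motif searched on both strands. The windows lie at chr6:21215096-21215345 on the plus strand (Kcnd2), chr19:45816064-45816313 on the minus strand (Kcnip2), chr11:111065914-111066163 on the plus strand (Kcnj2), chr2:55435720-55435969 on the plus strand (Kcnj3) and chr9:32344345-32344594 on the minus strand (Kcnj5).
Kcnd2: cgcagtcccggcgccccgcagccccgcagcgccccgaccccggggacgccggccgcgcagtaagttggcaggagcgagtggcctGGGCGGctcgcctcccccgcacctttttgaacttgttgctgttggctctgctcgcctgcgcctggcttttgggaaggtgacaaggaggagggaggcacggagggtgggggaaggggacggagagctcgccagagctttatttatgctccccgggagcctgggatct
Kcnip2: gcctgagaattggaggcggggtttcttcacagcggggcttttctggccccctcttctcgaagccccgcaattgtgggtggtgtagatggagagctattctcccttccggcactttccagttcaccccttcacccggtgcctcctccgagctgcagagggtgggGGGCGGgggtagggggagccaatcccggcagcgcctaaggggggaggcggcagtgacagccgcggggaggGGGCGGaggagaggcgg
Kcnj2: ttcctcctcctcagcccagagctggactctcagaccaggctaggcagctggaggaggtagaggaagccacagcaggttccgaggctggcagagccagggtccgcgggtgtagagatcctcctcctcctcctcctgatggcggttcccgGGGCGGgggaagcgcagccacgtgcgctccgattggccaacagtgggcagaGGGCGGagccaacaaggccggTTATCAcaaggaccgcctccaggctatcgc
Kcnj3: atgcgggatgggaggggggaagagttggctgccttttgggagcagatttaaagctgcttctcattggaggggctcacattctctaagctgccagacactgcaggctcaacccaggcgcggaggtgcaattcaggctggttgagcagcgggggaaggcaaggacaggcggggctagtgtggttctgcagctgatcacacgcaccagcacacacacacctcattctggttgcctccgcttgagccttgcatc
Kcnj5: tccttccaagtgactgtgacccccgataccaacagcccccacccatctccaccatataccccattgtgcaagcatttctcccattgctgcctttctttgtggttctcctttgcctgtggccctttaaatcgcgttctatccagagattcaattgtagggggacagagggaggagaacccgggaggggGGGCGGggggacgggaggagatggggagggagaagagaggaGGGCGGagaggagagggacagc
The motifs were the TATA box (TATAAA), the GC box (GGGCGG), the GATA motif (AGATAA or TGATAA) and a MEF2 motif. Kcnd2 held 1 GC box, Kcnip2, Kcnj2 and Kcnj5 held 2 each, Kcnj2 also held 1 GATA motif, and no searched motif was found in the window of Kcnj3. Of the 90 genes, 69 matched a promoter entry by symbol, with 94 windows between them. A GC box was present in 44.7% of these windows, against 32.7% of all 32851 promoter windows of the same length. The TATA box was present in 3.19% of the windows of the potassium channel genes, against 12.4% of all windows, and the GATA motif in 7.45%, against 16.6%. The MEF2 motif was present in 1.06%, against 0.508% of all windows. The median G and C content was 58.6% for the potassium channel windows and 52.4% for all windows.

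The values are log2 signals after RMA, which corrects the background and brings the arrays to a common distribution. A signal was compared between samples for the same gene and not between genes. The array medians lay between 4.19 and 4.29, with the highest in BZ replicate 3. All 9 cardiomyocyte markers lay above the array median on every array, as did 3 of 6 neuron markers and the 3 glia markers measured, while the other 3 neuron markers lay above it on no array. The labels name heart as the source and carry a further tissue tag that reads brain. Some libraries stood apart. The atrial markers averaged 2.37 log2 above their mean in NIZ replicate 2 and 1.09 above it in BZ replicate 2, and the other 7 arrays lay at -0.74 to -0.24. The neutrophil markers spanned -0.13 to 0.73 log2 around their mean in IZ, -1.62 to 1.69 in BZ and -2.19 to 1.38 in NIZ. In bulk tissue, fewer cells of a type and less RNA per cell cannot be told apart.

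Of the 90 potassium channel genes, 64 lay above the array median on all 9 arrays (71.1%, against 46.6% of all clusters), and 19 lay above it on none (21.1%, against 46.2%). The IKACh-family gene Kcnj6 and the sperm channel gene Kcnu1 had the same value on all 9 arrays, 3.37 and 2.86. At least 3 arrays shared 1 value in 53 of the genes (58.9%, against 48.3% of all clusters), so part of the measured set carried little information on the zones.

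No potassium channel gene changed between zones at an adjusted p of 0.05 in limma, with Benjamini-Hochberg adjustment over all 65534 clusters. No other cluster passed either (0% in IZ against NIZ, 0% in BZ against NIZ and 0% in IZ against BZ). At an unadjusted p under 0.05, IZ against NIZ gave 0 higher genes (1.24% of all clusters) and 1 lower gene, Kcnk13 (2.72%). BZ against NIZ gave 2 higher genes, Kcnab2 and Kcng4 (2.19%), and 0 lower genes (3.09%). IZ against BZ gave 0 higher genes (1.26%) and 4 lower genes, Kcnk13, Kcnk5, Kcna4 and Kcne3 (2.58%). The genes named are 1.11%, 2.22% and 4.44% of the 90, beside 2.72%, 2.19% and 2.58% of all clusters. The methods' test, a one-way analysis with Bonferroni correction within each cluster, gave 1 gene in IZ against NIZ (0.62% of all clusters), 0 in BZ against NIZ (0.876%) and 2 in IZ against BZ (0.682%) before adjustment over clusters, and 0 after it.

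The zones did not overlap for 2 lower genes in IZ against NIZ, Kcnk13 and Kcnip3 (4.55% of all clusters), and for 0 higher genes (1.78%). In BZ against NIZ this held for 2 higher genes, Kcnk5 and Kcnj4 (2.51%), and 0 lower genes (3.72%). In IZ against BZ it held for 4 lower genes, Kcnk13, Kcnip3, Kcnk5 and Kcne3 (3.53%), and 0 higher genes (2.24%). The smallest exact permutation p of 3 arrays against 3 is 0.1 (two-sided).

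The largest mean differences belonged to a small set of genes. The mean was higher in IZ than in NIZ by over 0.3 log2 for 5 genes, Kcnd2, Kcnj3, Kcnj5, Kcnj2 and Kcnq1 (1.36% of all clusters), and lower by as much for 3, Kcne4, Kcnip3 and Kcnip2 (1.64%). It was higher in BZ than in NIZ for 4, Kcnj5, Kcnq1, Kcnj3 and Kcnd2 (1.20%), and lower for 2, Kcnv2 and Kcnip2 (1.99%). It was higher in IZ than in BZ for 2, Kcnd2 and Kcnj2 (0.882%), and lower for 2, Kcne4 and Kcnk5 (0.685%). Apart from Kcnk5, each of these genes missed an unadjusted p of 0.05 in its comparison.

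The zone means of the other genes lay closer together. The median difference of the 90 genes was -0.01 log2 in IZ against NIZ, the same as for all clusters, 0.04 in BZ against NIZ (0.00 for all clusters) and -0.04 in IZ against BZ (-0.02). The mean was higher in IZ than in NIZ for 33 genes and lower for 53 (36.7% higher, against 39.7% of all clusters). Between BZ and NIZ, 66 genes had the higher mean in BZ and 22 the lower (73.3% higher, against 51.5%). Between IZ and BZ, 19 genes had the higher mean in IZ and 69 the lower (21.1% higher, against 40.1%). These splits moved with the scaling of the arrays and with BZ replicate 3. After median centring, 57.8% of the genes were higher in IZ than in NIZ (55.4% of all clusters), 66.7% were higher in BZ than in NIZ (47.6%) and 40.0% were higher in IZ than in BZ (57.8%). Quantile normalization gave 52.2% (53.2% of all clusters), 71.1% (53.6%) and 33.3% (49.6%). BZ replicate 3 held the single highest value of 47 of the 90 genes (52.2%, against 27.2% of all clusters). Without that array, 35 genes were higher in BZ than in NIZ and 49 lower, with a median of -0.01 log2 (38.9% higher, against 41.7% of all clusters). Likewise 43 were higher in IZ than in BZ and 41 lower, with a median of 0 (47.8% higher, against 46.8%).

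**Figure D1:**
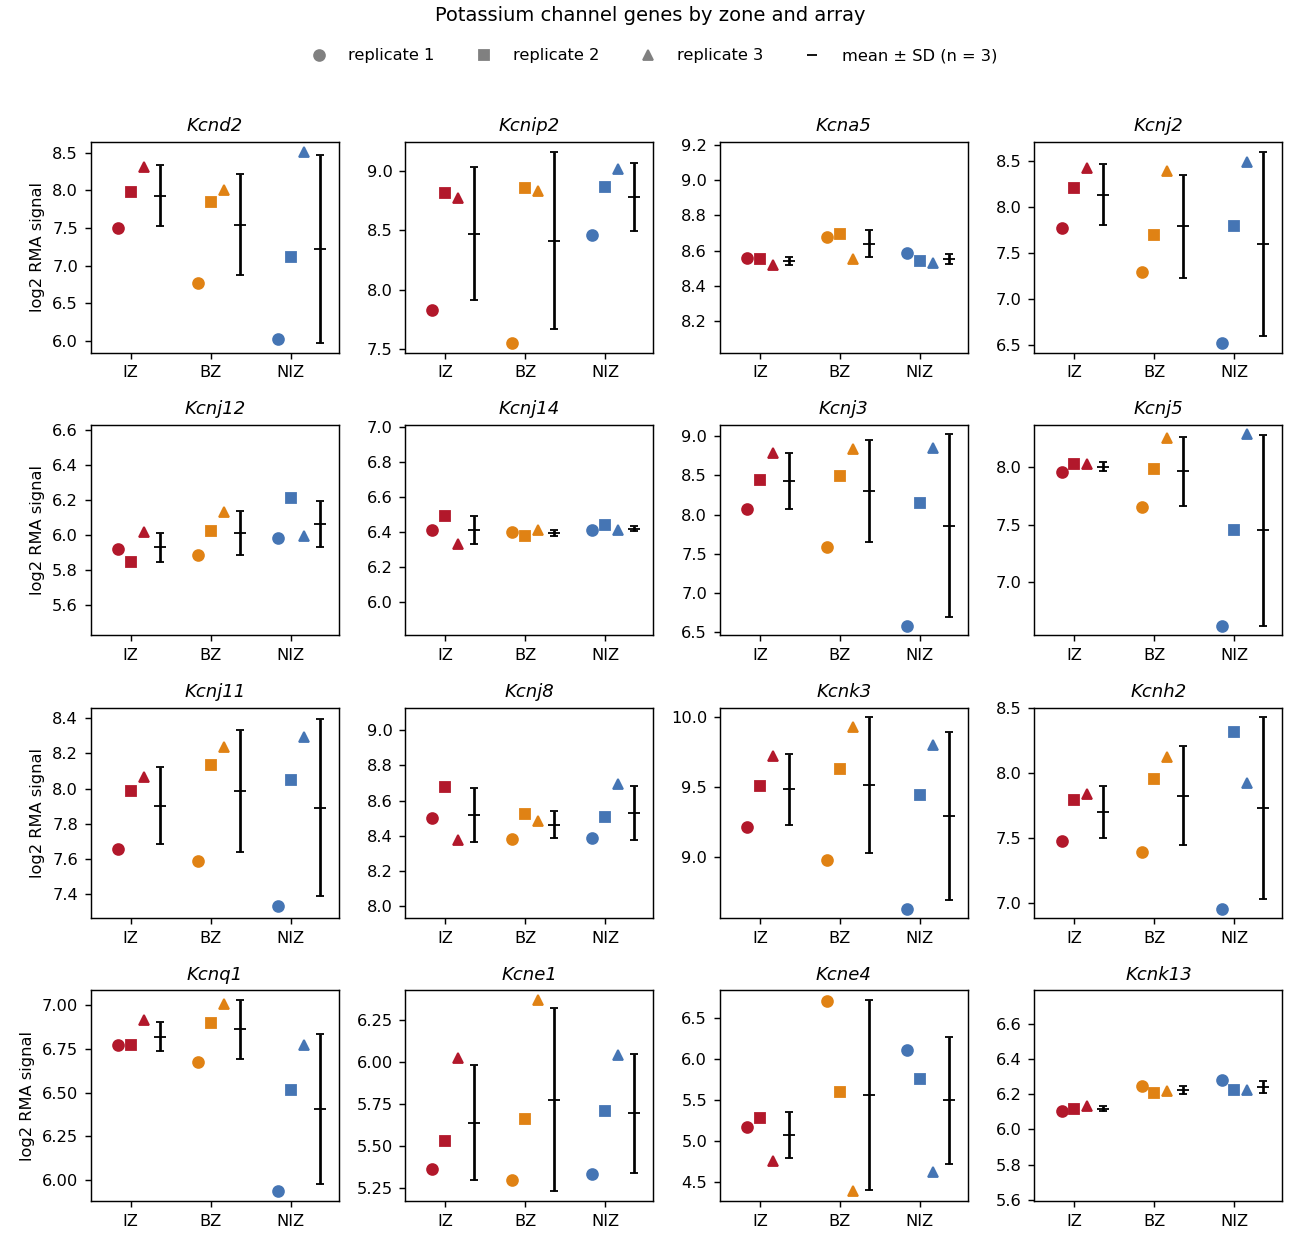
Log2 signal (y axis) of 16 potassium channel genes by zone (x axis: IZ, BZ, NIZ), with 1 point for each array, marked by replicate number, and the mean ± SD of 3 arrays. In Kcnd2, Kcnj2, Kcnj3 and Kcnj5 the lowest of the 9 points is NIZ replicate 1, and the points of replicate 3 lie at or near the top of each zone.

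Kcnd2, the pore subunit of the fast transient outward current, had the largest difference between IZ and NIZ among the 90 genes. Its signal was 7.50, 7.98 and 8.31 in IZ, 6.77, 7.84 and 8.01 in BZ and 6.02, 7.12 and 8.51 in NIZ. NIZ held both the lowest and the highest value, and the 3 zones overlapped. The mean was 7.93 ± 0.41 in IZ, 7.54 ± 0.67 in BZ and 7.22 ± 1.25 in NIZ (SD, n = 3 each). IZ minus NIZ was 0.71 ± 0.62 log2 (SE), or 1.64-fold, with an adjusted p of 0.999 in limma, and BZ minus NIZ was 0.32 ± 0.62. The difference of IZ and NIZ was 1.48 and 0.86 log2 within replicate numbers 1 and 2 and -0.20 within number 3. The numbers of IZ were not taken as pairs. The difference rested on 1 array: without NIZ replicate 1 it was 0.11 log2, and BZ minus NIZ was -0.28. Without NIZ replicate 3, IZ minus NIZ was 1.36.

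Kcnip2 encodes the calcium-binding subunit KChIP2 that partners the Kcnd channels in ventricle. It had signals of 7.82, 8.81 and 8.77 in IZ, 7.55, 8.86 and 8.83 in BZ and 8.46, 8.87 and 9.02 in NIZ. Replicate 1 was the lowest of each zone, and the zones overlapped. Its difference was -0.31 ± 0.41 log2 in IZ against NIZ, and BZ minus NIZ was -0.37 ± 0.41 (adjusted p of 1 and 0.879 in limma). Without IZ replicate 1 the first was 0.01, and without BZ replicate 1 the second was 0.06. Without NIZ replicate 1 they were -0.47 and -0.53. Within numbers 1, 2 and 3, IZ minus NIZ was -0.64, -0.05 and -0.25 log2, and BZ minus NIZ was -0.92, -0.01 and -0.19. The numbers of IZ were not taken as pairs. The mean differences of Kcnd2 and its partner Kcnip2 against NIZ thus had opposite signs, and neither passed the test.

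Kcnd3, the second Kcnd gene of the ventricle, ranged only from 5.95 to 6.20 over the 9 arrays. Kcna4, the pore of the slow transient outward current, had 4.57, 4.39 and 4.29 in IZ, 4.71, 4.51 and 4.77 in BZ and 4.51, 4.45 and 4.51 in NIZ. IZ minus BZ was -0.25 ± 0.09 log2 (unadjusted p = 0.0215, adjusted p = 0.943 in limma), with IZ lower in all 3 replicate numbers and overlapping values. The numbers of IZ were not taken as pairs. Kcnip3, which encodes the calcium sensor calsenilin, had 6.04, 5.99 and 6.04 in IZ, 6.10, 6.17 and 6.07 in BZ and 6.09, 6.86 and 6.09 in NIZ. All IZ values lay below all BZ and NIZ values. IZ minus NIZ was -0.33 ± 0.19 log2, and -0.07 without NIZ replicate 2, the array with the highest atrial markers. The part of atrial tissue in this value was not tested. Over the 8 transient outward genes, 2 had the higher mean in IZ and 5 in NIZ, with a median difference of -0.05 log2, and 0 passed the adjusted test.

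**Figure D2:**
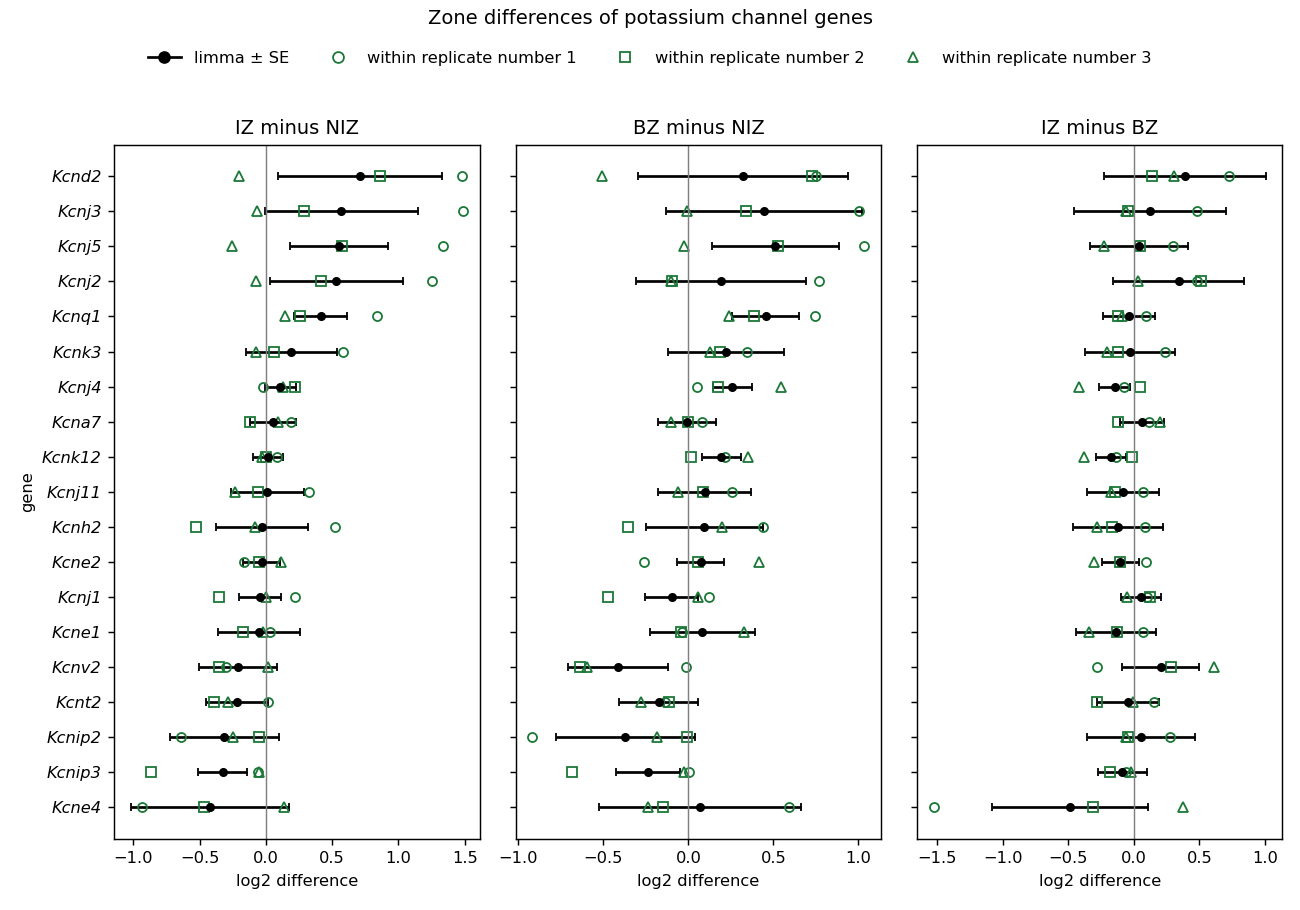
Differences in log2 signal (x axis) of the named potassium channel genes whose values spanned more than 0.5 log2, with limma's estimate ± SE and the differences within each replicate number as points. For Kcnd2, Kcnj3, Kcnj2 and Kcnj5 the difference of IZ and NIZ is highest within number 1 and lies below 0 within number 3. The numbers of IZ were not taken as pairs.

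Among the slower voltage-gated channels, Kcna5, the pore of a slowly inactivating current of mouse ventricle, had 8.56, 8.55 and 8.52 in IZ, 8.68, 8.69 and 8.55 in BZ and 8.58, 8.54 and 8.53 in NIZ. Its 9 values spanned only 0.18 log2. BZ minus NIZ was 0.09 ± 0.05 log2 (adjusted p = 0.854 in limma), with BZ higher in all 3 replicate numbers. Kcna7, a channel gene of striated muscle, had 5.74, 5.76 and 6.17 in IZ, 5.63, 5.88 and 5.97 in BZ and 5.55, 5.88 and 6.08 in NIZ, so that it followed the replicate number and not the zone. The silent subunit Kcnv2, which joins other pore subunits and makes no channel alone, had 4.27, 4.55 and 5.33 in IZ, 4.55, 4.27 and 4.71 in BZ and 4.56, 4.91 and 5.31 in NIZ. BZ minus NIZ was -0.42 ± 0.29 log2 (adjusted p = 0.854), with BZ lower in all 3 numbers.

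Kcnq1 encodes the pore of the slow delayed rectifier IKs. Of the 5 genes with a mean higher in IZ than in NIZ by over 0.3 log2, it alone was higher in both IZ and BZ within every replicate number. It had 6.77, 6.77 and 6.92 in IZ, 6.68, 6.90 and 7.01 in BZ and 5.93, 6.51 and 6.77 in NIZ. NIZ overlapped the other zones only through its replicate 3. The mean was 6.82 ± 0.08 in IZ, 6.86 ± 0.17 in BZ and 6.41 ± 0.43 in NIZ (SD, n = 3 each). IZ minus NIZ was 0.41 ± 0.20 log2, or 1.33-fold (unadjusted p = 0.0721, adjusted p = 0.999 in limma), and BZ minus NIZ was 0.45 ± 0.20, or 1.37-fold (unadjusted p = 0.0526, adjusted p = 0.854). Within numbers 1, 2 and 3, IZ minus NIZ was 0.84, 0.26 and 0.14 log2, and BZ minus NIZ was 0.74, 0.38 and 0.24. With the number as a blocking term in limma, the unadjusted p was 0.0151 in BZ against NIZ (adjusted p = 0.669). The same block gave 0.0220 in IZ against NIZ (adjusted p = 0.807), but the numbers of IZ were not taken as pairs. Without NIZ replicate 1 the differences of IZ and BZ against NIZ were 0.18 and 0.22 log2, and without NIZ replicate 3 they were 0.60 and 0.64. Because IZ and BZ were set against the same NIZ arrays, their values are not independent.

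Kcne1, the auxiliary subunit of IKs, showed no such difference. Its signal was 5.37, 5.53 and 6.02 in IZ, 5.30, 5.66 and 6.37 in BZ and 5.34, 5.71 and 6.04 in NIZ. The replicate number took 91.4% of its sum of squares and the zone 2.55%. Kcnh2, the pore of the rapid delayed rectifier IKr, had 7.47, 7.79 and 7.84 in IZ, 7.39, 7.96 and 8.12 in BZ and 6.96, 8.32 and 7.92 in NIZ. The lowest and the highest value were both in NIZ, and IZ minus NIZ was -0.03 ± 0.35 log2.

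Kcne4, an inhibitory partner of Kcnq1 and other channels, ran the other way with the replicate number. It had 5.17, 5.28 and 4.76 in IZ, 6.70, 5.60 and 4.38 in BZ and 6.11, 5.75 and 4.62 in NIZ. The lowest value of each zone came from replicate 3. Its difference was -0.42 ± 0.60 log2 in IZ against NIZ and -0.49 ± 0.60 in IZ against BZ, the most negative of the 90 genes in both comparisons, and neither passed the test. Both rested on single arrays. The difference of IZ and NIZ was -0.11 without NIZ replicate 1, and that of IZ and BZ was 0.08 without BZ replicate 1. The first was -0.86 without NIZ replicate 3, and the second was -1.08 without BZ replicate 3. Kcne3, another auxiliary subunit, had 4.39, 4.28 and 4.37 in IZ, 4.54, 4.61 and 4.40 in BZ and 4.46, 4.35 and 4.39 in NIZ. All IZ values lay below all BZ values, with a difference of -0.17 ± 0.06 log2 (unadjusted p = 0.0244, adjusted p = 0.943 in limma). Over the 7 measured genes of IKr, IKs and the Kcne family, 7 had the higher mean in BZ than in NIZ (51.5% of all clusters). Their median difference was 0.08 log2, and 0 passed the adjusted test. Without BZ replicate 3, 3 were higher and 4 lower, with a median of -0.06.

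Kcnj2, the main pore gene of the inward rectifier IK1 in mouse ventricle, had 7.77, 8.21 and 8.43 in IZ, 7.29, 7.69 and 8.40 in BZ and 6.52, 7.79 and 8.50 in NIZ. Replicate 3 was nearly level between the zones, and replicate 1 was lowest in NIZ. The difference of IZ and NIZ was 0.53 ± 0.50 log2, or 1.45-fold (adjusted p = 0.999 in limma). It was -0.01 without NIZ replicate 1 and 0.98 without NIZ replicate 3. Kcnj12, a further IK1 pore gene, ranged from 5.85 to 6.21 with IZ minus NIZ of -0.13 ± 0.09 log2. Kcnj4, also of the IK1 family, had 4.13, 4.22 and 3.89 in IZ, 4.20, 4.17 and 4.31 in BZ and 4.15, 3.99 and 3.76 in NIZ. All BZ values lay above all NIZ values, and the difference was 0.26 ± 0.12 log2 (unadjusted p = 0.0575, exact permutation p = 0.1). Kcnj4 lay above the array median on only 3 of 9 arrays. Over the 4 IK1 genes, the mean was higher in IZ than in NIZ for 2 and lower for 2.

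Kcnj11, the pore of the ATP-sensitive channel in ventricular myocytes, had 7.66, 7.99 and 8.07 in IZ, 7.59, 8.14 and 8.24 in BZ and 7.33, 8.05 and 8.30 in NIZ. The zone means differed by no more than 0.10 log2, with 0.01 ± 0.27 in IZ and 0.10 ± 0.27 in BZ against NIZ. The replicate number took 88.5% of the sum of squares and the zone 1.87%. Kcnj8, the pore of the vascular ATP-sensitive channel, ranged from 8.37 to 8.70, with IZ minus NIZ of -0.01 ± 0.10 log2. The regulatory partners of both, the sulfonylurea receptors, had similarly small differences. Abcc9 had 10.54, 10.81 and 10.97 in IZ, 10.23, 10.69 and 11.01 in BZ and 10.36, 10.62 and 11.08 in NIZ, with IZ minus NIZ of 0.09 ± 0.24 log2. Abcc8 ranged from 6.58 to 7.23, with IZ minus NIZ of 0.07 ± 0.19.

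The IKACh subunits Kcnj3 and Kcnj5 form a channel together and had like profiles over the 9 arrays. Kcnj3 had 8.06, 8.44 and 8.78 in IZ, 7.58, 8.49 and 8.84 in BZ and 6.58, 8.15 and 8.85 in NIZ. Kcnj5 had 7.96, 8.03 and 8.03 in IZ, 7.66, 7.98 and 8.26 in BZ and 6.62, 7.45 and 8.29 in NIZ. In both genes NIZ replicate 1 was lowest and NIZ replicate 3 highest, so the NIZ values enclosed those of the other zones. IZ minus NIZ was 0.57 ± 0.58 log2 for Kcnj3 and 0.55 ± 0.37 for Kcnj5, and BZ minus NIZ was 0.45 ± 0.58 and 0.51 ± 0.37 (adjusted p from 0.857 to 1 in limma). Without NIZ replicate 1, IZ minus NIZ was -0.07 for Kcnj3 and 0.14 for Kcnj5. Without NIZ replicate 3 it was 1.06 for Kcnj3 and 0.97 for Kcnj5. In NIZ replicate 2, where the 4 atrial markers averaged 2.37 log2 above their mean, Kcnj3 had 8.15 and Kcnj5 had 7.45. The part of atrial tissue in these values was not tested. Kcnj6 and Kcnj9, better known from neurons, spanned 0 and 0.29 log2.

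Among the 14 tandem-pore genes, which carry background current, 14 had the lower mean in IZ than in BZ, with a median of -0.08 log2. In BZ against NIZ, 13 had the higher mean. The 90 genes together leaned the same way, with 76.7% lower in IZ than in BZ and 73.3% higher in BZ than in NIZ. Of all clusters, 40.1% were higher in IZ than in BZ and 51.5% were higher in BZ than in NIZ. None of the 14 passed the adjusted test in limma. In IZ against BZ, Kcnk13 and Kcnk5 were lower at an unadjusted p under 0.05, as were 2.58% of all clusters. In BZ against NIZ, 0 had such a p (2.19% of all clusters higher and 3.09% lower). Without BZ replicate 3, 10 were lower in IZ than in BZ and 4 higher, and 6 were higher in BZ than in NIZ and 8 lower. Kcnk3, a pH-sensitive background channel, had 9.21, 9.51 and 9.73 in IZ, 8.98, 9.63 and 9.93 in BZ and 8.63, 9.45 and 9.80 in NIZ. Replicate 1 was the lowest and replicate 3 the highest in every zone, and IZ minus NIZ was 0.19 ± 0.34 log2 (-0.14 without NIZ replicate 1 and 0.45 without NIZ replicate 3).

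Kcnk13, a background channel known from microglia, had the largest share of its spread between zones among the 90 genes. Its signal was 6.11, 6.11 and 6.14 in IZ, 6.25, 6.21 and 6.22 in BZ and 6.28, 6.23 and 6.22 in NIZ. All IZ values lay below all BZ and NIZ values, and the zone took 88.6% of the sum of squares. The size was small, -0.12 ± 0.03 log2 in IZ against NIZ (unadjusted p = 0.00491, adjusted p = 0.999 in limma, exact permutation p = 0.1) and -0.11 ± 0.03 in IZ against BZ. Kcnk5, an alkaline-activated background channel, had 4.66, 4.40 and 4.40 in IZ, 4.71, 4.78 and 4.88 in BZ and 4.62, 4.70 and 4.66 in NIZ. IZ lay below BZ in all values, by -0.31 ± 0.08 log2 (unadjusted p = 0.00505, adjusted p = 0.943), and BZ lay above NIZ in all values, by 0.13 ± 0.08. Kcnk6, whose channel carries potassium out of macrophages, ranged from 6.75 to 7.08.

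Of the 9 genes for calcium-activated channels, 7 had the higher mean in BZ than in NIZ (51.5% of all clusters). Without BZ replicate 3 there were 4, and with all arrays 0 passed the adjusted test. The small-conductance genes Kcnn1 and Kcnn2 followed the replicate number. Kcnn2 had 5.82, 5.93 and 6.05 in IZ, 5.67, 5.93 and 6.29 in BZ and 5.57, 5.93 and 6.22 in NIZ, with 86.1% of the sum of squares taken by the number and 1.03% by the zone. Kcnma1 and Kcnmb1, pore and auxiliary subunit of the large-conductance channel of smooth muscle, differed between IZ and NIZ by -0.06 ± 0.05 and -0.03 ± 0.07 log2. Kcnt2, a sodium-activated channel gene, had its highest value, 6.11, in NIZ replicate 2 and its lowest, 5.25, in BZ replicate 1.

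Kcna3 and Kcnn4, which set the membrane potential of T cells and macrophages, varied within zones. Kcna3 had 6.00, 5.78 and 5.92 in IZ, 6.40, 5.54 and 5.90 in BZ and 6.07, 5.79 and 5.71 in NIZ. It was highest in BZ replicate 1, the array with the highest neutrophil and macrophage markers (1.69 and 0.57 log2 above their means). The part of immune cells in this value was not tested. Kcnn4 had 5.78, 5.60 and 5.47 in IZ, 5.64, 5.42 and 5.71 in BZ and 5.60, 5.44 and 5.45 in NIZ, with IZ minus NIZ of 0.12 ± 0.10 log2. The macrophage markers averaged -0.10 to 0.47 log2 around their mean in IZ, -0.23 to 0.57 in BZ and -0.60 to -0.17 in NIZ.

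Of the 3 Kvbeta genes, for cytoplasmic subunits of Kcna channels, Kcnab2 had 5.80, 5.77 and 5.70 in IZ, 5.93, 5.77 and 5.83 in BZ and 5.77, 5.70 and 5.67 in NIZ. BZ minus NIZ was 0.13 ± 0.05 log2 (unadjusted p = 0.0421, adjusted p = 0.854 in limma), with BZ higher in all 3 replicate numbers and overlapping values. The silent subunit Kcng4 had 4.23, 4.23 and 4.35 in IZ, 4.23, 4.31 and 4.41 in BZ and 4.23, 4.11 and 4.16 in NIZ, and BZ minus NIZ was 0.15 ± 0.06 (unadjusted p = 0.0404, adjusted p = 0.854). Both values are small beside the spread of the genes above. The number as a blocking term treats BZ and NIZ as pairs, which the labels do not state. With it, 4 genes were higher in BZ at an unadjusted p under 0.05 (3.14% of all clusters), namely Kcnq1, Kcnab2, Kcng4 and Kcnk12. In this comparison 0 were lower (4.09%), and 0 passed the adjusted threshold in limma (0%). The numbers of IZ were not taken as pairs. There the same block gave 1 higher gene, Kcnq1 (2.16%), and 1 lower gene, Kcnk13 (3.78%), in IZ against NIZ. It gave 0 higher (2.08%) and 5 lower genes (3.21%) in IZ against BZ.

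In the potassium channel genes of widest range, the replicate number took a larger share of the spread than the zone, except in Kcnq1. The range over the 9 arrays exceeded 1 log2 in 11 of the 90 genes (12.2%, against 4.09% of all clusters). These were Kcnk3, Kcnip2, Kcnj3, Kcnj2, Kcnj5, Kcnh2, Kcnd2, Kcnq1, Kcne1, Kcne4 and Kcnv2. The lowest of the 9 values was in NIZ replicate 1 for 7 of them, and the highest was in NIZ replicate 3 for 5. Over all clusters of any range these shares were 12.7% and 11.2%, and other wide clusters were not counted. The same arrays stood apart over the whole array. On the first principal component of all clusters (40.8% of the variance), NIZ replicate 1 lay at -46.8. BZ replicate 3 and NIZ replicate 3 lay at the other end, at 35.6 and 32.4. Replicate 3 lay above replicate 1 in every zone for 26 of the 90 genes (28.9%, against 18.4% of all clusters), among them 10 of the 11. The share among other wide clusters was not counted here either. Replicate 3 lay below replicate 1 in every zone for 5 genes, Kcna5, Kcna3, Kcnab2, Kcne4 and Kcne3 (5.56%, against 11.1%).

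**Figure D3:**
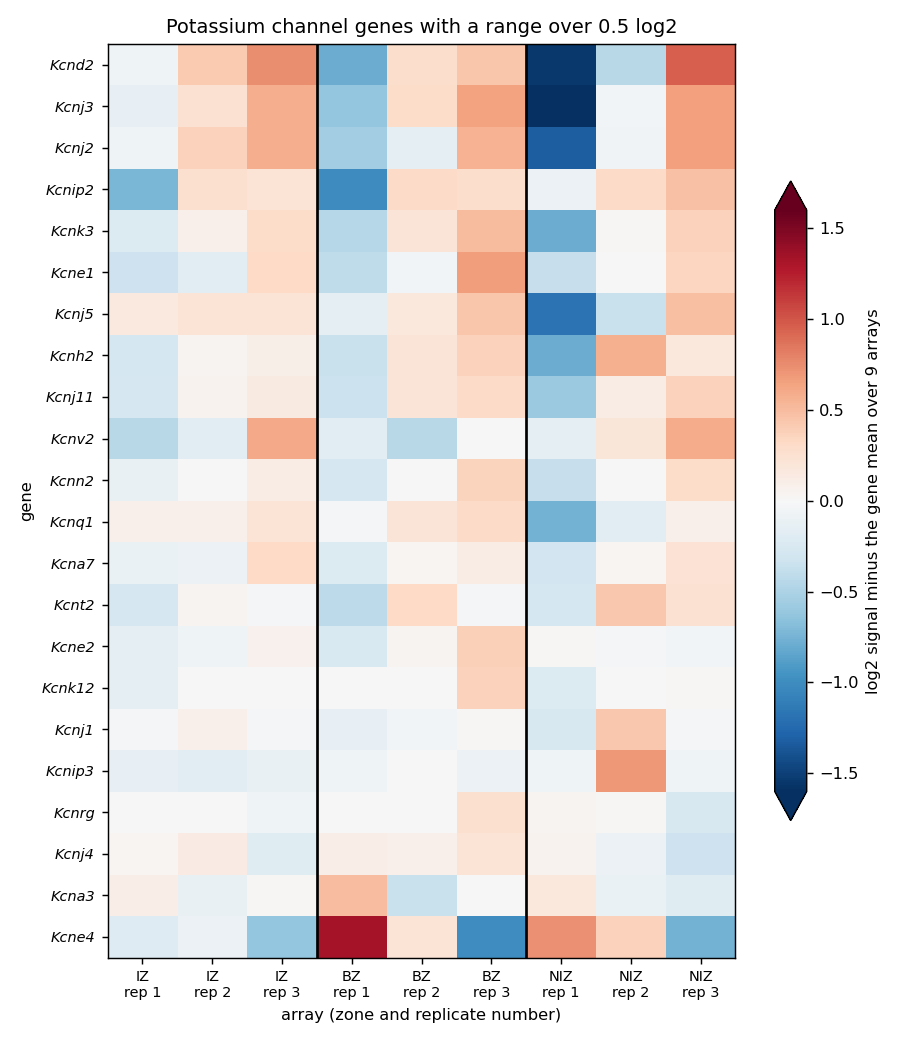
Deviation of each array's log2 signal from the gene's mean over 9 arrays (colour) for the 22 potassium channel genes whose values spanned more than 0.5 log2 (rows), with the arrays in columns from IZ to BZ to NIZ. NIZ replicate 1 holds the lowest value of 7 of the 11 genes that spanned more than 1 log2, while the lowest value of Kcne4 is in BZ replicate 3.

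The replicate number took a larger share of the sum of squares than the zone in 55 of the 88 genes with any variation (62.5%, against 53.9% of all clusters). The median share was 31.0% for the number and 21.5% for the zone, and over all clusters it was 27.9% for the number and 23.7% for the zone. For the 64 genes above the array median on all arrays it was 32.6% and 16.2%. In a fit of zone and number, chosen after the values were seen, limma's F test of the number had an unadjusted p under 0.05 for 19 genes (21.1%, against 12.5% of all clusters). It passed the adjusted threshold for 0 genes (0% of all clusters), with the smallest adjusted p, 0.0807, for Kcne1. The labels do not say what the number stands for.

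**Figure D4:**
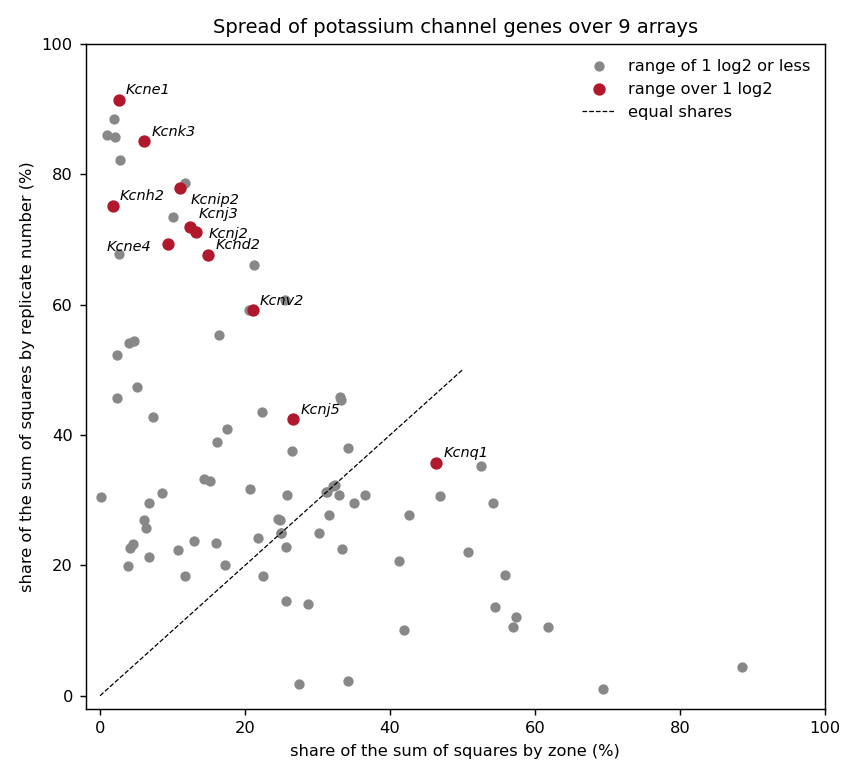
Share of each gene's sum of squares over 9 arrays taken by the zone (x axis, %) and by the replicate number (y axis, %), for 88 potassium channel genes, with the 11 genes that spanned more than 1 log2 in red and a dashed line of equal shares. Of these 11, Kcnq1 alone lies below the line, with 46.3% for the zone and 35.7% for the number.

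Several marker lists differed between replicate numbers. Of the 9 cardiomyocyte markers, 8 lay higher in replicate 3 than in replicate 1 in every zone. Their mean deviation was -0.12, -0.01 and 0.15 log2 in IZ, -0.28, 0.04 and 0.15 in BZ and -0.10, 0.05 and 0.11 in NIZ. All 6 neutrophil markers lay lower in replicate 3 than in replicate 1 in BZ and in NIZ, with mean deviations of 1.69, 0.24 and -1.62 in BZ and 1.38, 0.01 and -2.19 in NIZ. In IZ they ran -0.13, -0.12 and 0.73. The macrophage markers ran 0.47, 0.36 and -0.10 in IZ, 0.57, -0.02 and -0.23 in BZ and -0.17, -0.60 and -0.29 in NIZ. The fibroblast markers ran 0.12, 0.21 and -0.10 in IZ, -0.08, 0.15 and 0.15 in BZ and -0.52, -0.12 and 0.18 in NIZ. Replicate 3 lay above replicate 1 in every zone for 0 of the endothelial, macrophage, lymphocyte, neuron and glia markers, 1 of 5 fibroblast markers, 2 of 4 atrial markers and 2 of 7 pericyte and smooth muscle markers. The summed signal of the cardiomyocyte markers was 44928 to 51130 in IZ, 41742 to 50765 in BZ and 45900 to 49561 in NIZ, on the linear scale. That of the neutrophil markers was 2155 to 4916, 651 to 8267 and 440 to 7239 in the same zones. The part of cell composition in the values of the potassium channel genes was not tested.

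**Figure D5:**
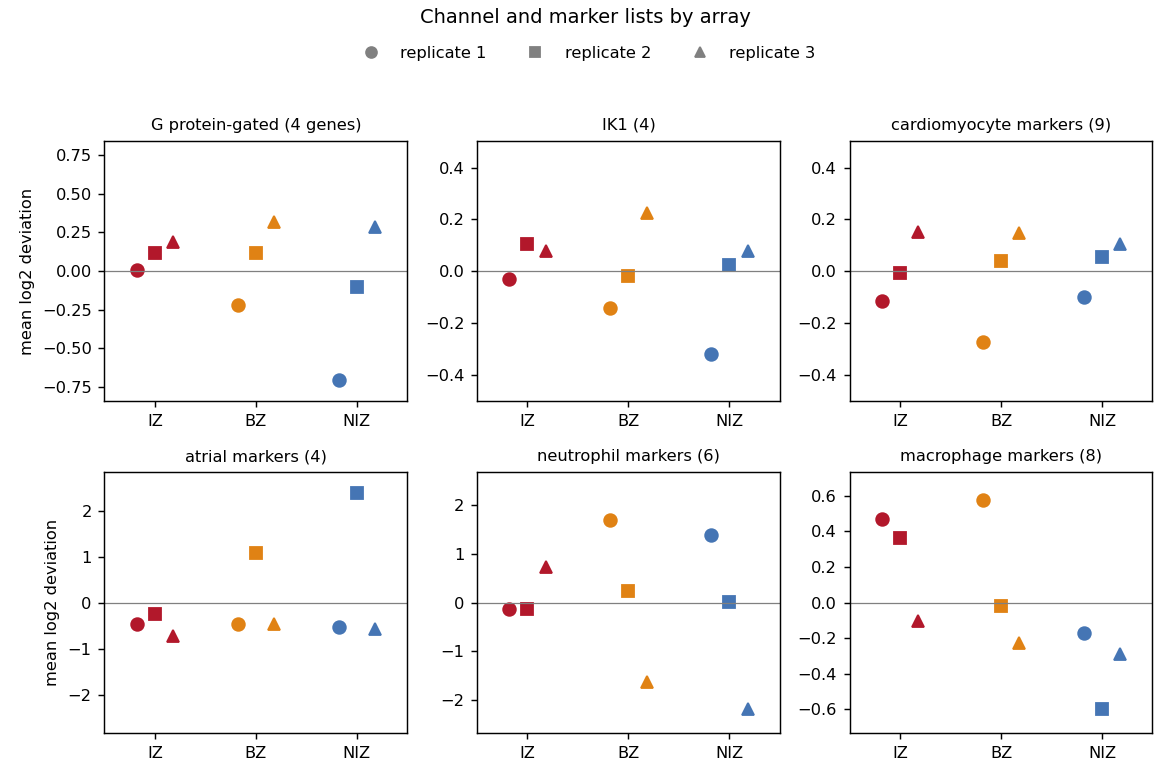
Mean deviation in log2 signal (y axis) of 6 gene lists by zone (x axis: IZ, BZ, NIZ), with 1 point for each of the 9 arrays, shaped by replicate number. The G protein-gated channel list is lowest in NIZ replicate 1, at -0.70, the atrial markers are highest in NIZ replicate 2, at 2.37, and the neutrophil markers are lowest in NIZ replicate 3, at -2.19.

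Partners of these channels that do not carry the Kcn name were measured for 20 of 23 listed genes, and 0 passed the adjusted test in any comparison. Irx3, a transcription factor known for shaping the transient outward current across the ventricular wall, had 7.88, 7.95 and 7.95 in IZ, 8.05, 8.20 and 8.12 in BZ and 8.12, 8.34 and 8.00 in NIZ. All IZ values lay below all BZ and NIZ values, by -0.23 ± 0.09 log2 against NIZ (unadjusted p = 0.0301, adjusted p = 0.999 in limma) and -0.20 ± 0.09 against BZ (unadjusted p = 0.0494). Tbx3, a transcription factor of the conduction system, had 6.86, 6.89 and 6.52 in IZ, 6.81, 6.86 and 6.68 in BZ and 7.25, 7.14 and 6.86 in NIZ, with IZ minus NIZ of -0.33 ± 0.13 log2 (unadjusted p = 0.0371, adjusted p = 0.999). Of 14 genes for the sodium pump and chloride-coupled potassium transport, 9 were measured, and 1 had the higher mean in BZ than in NIZ and 8 the lower, with a median of -0.05 log2. The higher 1 was also the only 1 with an unadjusted p under 0.05 in that comparison. Slc12a7, a potassium chloride cotransporter, had 8.91, 8.87 and 8.89 in IZ, 8.88, 8.87 and 9.15 in BZ and 8.66, 8.59 and 8.92 in NIZ, and BZ minus NIZ was 0.24 ± 0.10 log2 (unadjusted p = 0.0467, adjusted p = 0.854).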

How the data were processed

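RNA of 9 left ventricle samples was hybridised to GeneChip Mouse Transcriptome Assay 1.0 arrays, 1 array for each sample. The deposited values are log2 signals that the authors made with RMA. The submitters' processing notes list Transcriptome Analysis Console 3.0 and Affymetrix Expression Console 1.0 too. No read depth exists for arrays, and 3 arrays per zone limit the precision. Gene symbols came from the platform annotation, in which 30414 clusters have 1 symbol, 2146 several and 32974 none.

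A mean for each zone was estimated in limma 3.58.1 (R 4.3.3) from the 9 arrays together, unblocked and unfiltered, and p-values were adjusted by Benjamini-Hochberg over 65534 clusters. The fit was run on simulated data with independent noise and no effect of the replicate number. That run cannot show how the fit handles such an effect. Exact permutation tests were two-sided. Deviations of same-numbered samples correlated at 0.62, 0.20 and 0.52 between BZ and NIZ, all above 0.1, so these numbers were taken as pairs. They correlated at 0.36, 0.08 and 0.25 between IZ and NIZ and at 0.36, 0.06 and 0.20 between IZ and BZ. These were not all above 0.1, so the numbers of IZ were not taken as pairs. The choice rests on correlations of these same data, and the labels tie no number to a mouse in any zone. The p-values of BZ against NIZ come from the fit without pairs unless the block is named.

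Named genes were those of ventricular current lists, the 10 with the highest signal, the 5 largest differences in each direction and comparison, those with an unadjusted p under 0.05 or zones apart by over 0.3 log2, and partner genes by the same p. Other genes in the text were picked with their values in view. The members and lists were chosen with earlier results of these data known. Alternatives were the replicate block, other scalings, a filter on dim clusters, other variance models, the methods' test and leaving out arrays. Promoters were read from RefSeq, GRCm38.p6.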

Additional observations from a re-analysis of the deposited data

How the results depend on the processing

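No potassium channel gene was called in any comparison under any alternative run. The number of called clusters was 0 in limma with all arrays. Leaving out arrays or replicate numbers gave 0 to 216 in IZ against NIZ, with 216 without NIZ replicate 3 and 68 without replicate 3 of every zone. In BZ against NIZ it gave 0 to 173, with 173 without NIZ replicate 3 and 65 without replicate 3. The median difference of the 90 genes ran from -0.0111 to 0.0673 log2 in BZ against NIZ and from -0.0797 to 0 in IZ against BZ when arrays were left out. Without BZ replicate 3 these medians were -0.0111 and 0. For the 41 named genes, 24 turned sign under at least 1 alternative in IZ against NIZ, 23 in BZ against NIZ and 23 in IZ against BZ. The smallest adjusted p of a named gene over all alternatives was 0.344, 0.409 and 0.507 in these comparisons. With the replicate block the called count was 0 in every comparison, so it changed no call. In this balanced design the block cannot move the differences themselves, and the medians of -0.01, 0.04 and -0.04 log2 are those of the fit without it. The cause of these shifts was not tested. Signal over background was not analysed here.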
